A study of Mus musculus with 8 samples.

Results

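MiR-221 and miR-222 were examined as 4 mature miRNAs, namely the 3p and the 5p arm of each hairpin. They were chosen by name, as the rows of the deposited tables listed as mmu-miR-221-3p, mmu-miR-221-5p, mmu-miR-222-3p and mmu-miR-222-5p, and make up 4 of the 1978 mature miRNAs listed for the hairpin libraries of C2C12 cells. All 4 were also among the 605 miRNAs listed for the ATF4 pair and the 696 listed for the P19 pair. Small RNA was sequenced from mouse cell lines with a lowered or raised activity of the PERK branch of the unfolded protein response. PERK (Perk) is a kinase in the membrane of the endoplasmic reticulum, and ATF4 is a transcription factor made when PERK is active. There were 8 conditions with 1 library each, so replicate error is unknown for every comparison and no p-value is given.

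In 4 of the libraries, C2C12 mouse myoblasts carried a stable lentiviral hairpin (pLKO.1 vector), either the negative control shNC or shPerk against Perk, and were taken at day 0 or at day 3 of differentiation. Both hairpin lines were made by infection and antibiotic selection, and whether a line is 1 clone is not given in the sources used here. In 2 further libraries C2C12 cells carried an empty vector or an ATF4 overexpression vector driven by the EF1α promoter and were kept in growth medium, with no day in the labels. The last 2 libraries came from P19 cells, a mouse embryonal carcinoma line, with shNC or shPerk, with no day or inducing agent in the labels. Perk and Atf4 mRNA are not measured by small RNA sequencing, so the targeted genes were not checked here.

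MiR-221 and miR-222 are transcribed from neighbouring hairpins on the X chromosome, and their 3p arms, the main products, carry the same seed, the bases that pair with a target mRNA. Their best known targets are the cyclin-dependent kinase inhibitors p27 (Cdkn1b) and p57 (Cdkn1c), which hold cells out of the cell cycle. The pair is abundant in many dividing cells, and in myoblasts it is known to decline as the cells stop dividing and fuse into myotubes.

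The mature sequences are shown because they define the shared seed, and come from RefSeq on GRCm38.p6, which held 3 of the 4 members. Capitals mark the seed, bases 2 to 8, and miR-1928 is shown as the other miRNA of the table with that seed.
miR-221-3p: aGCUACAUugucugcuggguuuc
miR-222-3p: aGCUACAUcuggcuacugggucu
miR-1928: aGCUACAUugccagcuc
miR-221-5p: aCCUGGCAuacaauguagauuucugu
The 3p arms of miR-221 and miR-222 were identical in their first 8 bases and in 11 of 23 positions aligned without gaps. They lie on the minus strand at chrX:19146307-19146329 and chrX:19146901-19146923, and the 5p arm of miR-221 lies at chrX:19146344-19146369. The hairpins Mir221 (chrX:19146294-19146388) and Mir222 (chrX:19146893-19146971) are 504 bp apart, overlap 0 other annotated genes and are thus intergenic, with the noncoding Gm14636 the nearest gene upstream, at 10009 bp. The seed of the 3p arms was found in 3 of the 1679 mature miRNAs of the RefSeq table. MiR-1928 (chr1:74206562-74206578, minus strand) had 0 reads in the 4 hairpin libraries, which allows at most 0.250 to 0.341 CPM (reads per 1000000 miRNA reads), and was not listed for the other 4 libraries.

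The site complementary to the seed is ATGTAGC, searched on the mRNA strand. It occurred 1 time in the annotated 3' UTR of each of the 2 best known targets. These windows are printed to show the match, which was found by sequence alone.
Cdkn1b: cctctaaaagcattggATGTAGCatt
Cdkn1c: ctgggacctttcgttcATGTAGCagg
The Cdkn1b window lies at chr6:134924415-134924440 (plus strand) and the Cdkn1c window at chr7:143458923-143458948 (minus strand) of GRCm38, and in both the match is followed by an A. Of 2102 genes with a 3' UTR of similar length to that of Cdkn1b (3439 bases), 23.0% held these letters, as did 4.92% of 2560 genes with one similar to that of Cdkn1c (688 bases) and 9.47% of all 20999 genes with a 3' UTR. These matches are a description of the sequence, and neither mRNA was measured.

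The hairpin libraries held 8800977 to 11993448 reads on miRNAs, and the values are given as reads or as CPM. For the ATF4 and P19 pairs only RPM, also reads per 1000000 miRNA reads, were available, scaled within each library. Levels can thus be set side by side across experiments only loosely, and no difference of levels across them was computed. The C2C12 controls themselves differed, with miR-221-3p at 3338 CPM in shNC day 0 cells and 8855 RPM in vector cells. For miR-222-3p these levels were 2294 CPM and 7701 RPM. Muscle miRNAs (miR-1a-3p, miR-133a-3p, miR-133b-3p and miR-206-3p) were all present in the 6 C2C12 libraries and summed to 2468 to 88480 CPM or RPM. The 9 markers of pluripotent cells summed to at most 0.442 CPM in the C2C12 hairpin libraries and were not listed for the ATF4 pair. They summed to 181714 RPM in P19 shNC and 414317 RPM in P19 shPerk cells. Of these, miR-290a-5p (2860 and 742 RPM) and miR-295-3p (20160 and 18752 RPM) were lower in P19 shPerk cells, and the others were higher. The most abundant, miR-302b-3p, had 76522 RPM in P19 shNC and 180818 RPM in P19 shPerk cells. Markers of other cell types differed between the shNC and shPerk libraries. The neuronal miR-9-5p had 173 CPM in shNC and 2641 CPM in shPerk cells at day 0, and 551 and 4044 CPM at day 3, while miR-124-3p, which defines neurons, had 0 reads in all 4. The haematopoietic miR-142a-3p had 28 and 1977 reads at day 0 and 60 and 665 reads at day 3, while miR-223-3p had 0 or 1 read, and the endothelial miR-126a-3p stayed between 83.7 and 89.9 CPM. The part of these markers in the results below was not tested.

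The 3p arms were among the abundant miRNAs of the C2C12 cells and much less so of P19 cells. MiR-221-3p had 3338 CPM in shNC and 6406 CPM in shPerk cells at day 0, and 4401 CPM in shNC and 1903 CPM in shPerk cells at day 3. It had 8855 RPM with the empty vector, 10702 RPM with ATF4, 562 RPM in P19 shNC and 378 RPM in P19 shPerk cells. Among the hairpin libraries it was highest in undifferentiated shPerk cells and lowest in shPerk cells at day 3, and none of the 4 counting intervals of the CPM (95% Clopper-Pearson) overlapped.

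MiR-222-3p followed at a lower level in each library, with 2294 CPM in shNC and 5896 CPM in shPerk cells at day 0, and 2325 CPM in shNC and 1711 CPM in shPerk cells at day 3. It had 7701 RPM with the empty vector, 8591 RPM with ATF4, 346 RPM in P19 shNC and 201 RPM in P19 shPerk cells. Its CPM, which carry no scaling beyond the total count, had overlapping intervals in the shNC libraries, of 2266 to 2322 CPM at day 0 and 2298 to 2352 CPM at day 3. Ranked by level among miRNAs above 0, miR-221-3p was number 29 to 53 and miR-222-3p number 31 to 58 in the hairpin libraries, against number 152 of 686 and 176 of 686 in P19 shNC cells.

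The 5p arms, the lesser products of the hairpins, were lower in all 8 libraries. MiR-221-5p had 188, 305, 207 and 149 CPM in shNC day 0, shPerk day 0, shNC day 3 and shPerk day 3 cells, 760 and 745 RPM with the vector and ATF4, and 30.2 and 37.3 RPM in P19 shNC and shPerk cells. MiR-222-5p, the least abundant, had 41.3, 78.9, 33.4 and 29.9 CPM, then 110 and 119 RPM, then 5.31 and 3.81 RPM in the same order. Its day 3 intervals overlapped, at 30.2 to 36.8 CPM in shNC and 26.5 to 33.6 CPM in shPerk cells. Together the 4 miRNAs took 0.586% of the reads in shNC and 1.27% in shPerk cells at day 0, 0.697% and 0.379% at day 3, 1.74% with the vector and 2.02% with ATF4, and 0.0943% and 0.0619% in P19 shNC and shPerk cells.

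**Figure D1:**
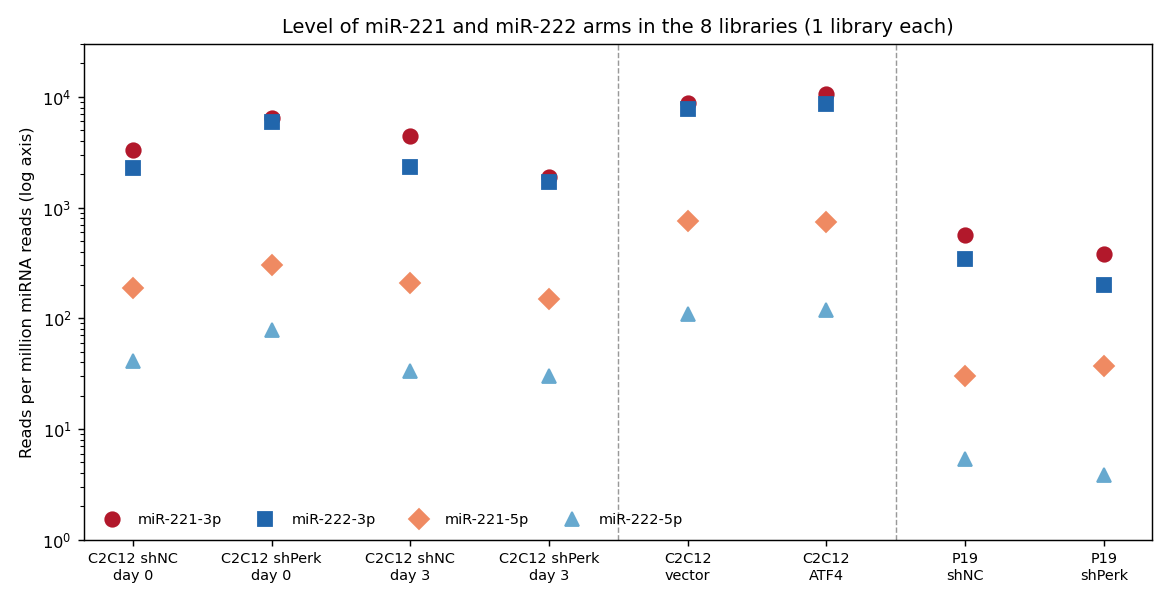
Level of the 4 miRNAs (CPM or RPM, log axis) in each of the 8 libraries, 1 point per library, with dashed lines between the hairpin, ATF4 and P19 libraries. In the hairpin libraries miR-221-3p runs from 1903 to 6406 CPM, with both extremes in shPerk cells, and in P19 cells all 4 points lie below those of the C2C12 libraries.

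The first question was whether undifferentiated myoblasts with less PERK differed in the pair. At day 0 all 4 miRNAs were higher in the shPerk library than in the shNC library. The reads of miR-221-3p numbered 37796 with shNC and 56383 with shPerk, giving a log2 fold change of 1.07 (counting interval 1.06 to 1.09) with libraries scaled by TMM, the trimmed mean of M-values. Those of miR-222-3p numbered 25967 and 51889, giving 1.496 (1.47 to 1.52), a ratio of 2.82. The 3p arm of miR-222 thus differed by more than that of miR-221. MiR-222-5p, with 468 and 694 reads, differed by 1.07 (0.89 to 1.24), and miR-221-5p, with 2133 and 2684 reads, by 0.83 (0.75 to 0.91).

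A 2-fold limit was passed by 3 of the 4 members at day 0, all of them higher in shPerk cells. Of the 602 miRNAs tested, 35.9% were past the limit in either direction, 15.6% were higher and 20.3% lower. MiR-222-3p stood above 88.9% of these miRNAs, miR-221-3p above 86.4%, miR-222-5p above 86.0% and miR-221-5p above 79.7%. With total-count scaling, or with only miRNAs at 10 CPM or more in both libraries, 1 member, miR-222-3p, was past the limit. If replicate libraries varied by a coefficient of variation of 0.2, the interval would be 0.70 to 2.30 for miR-222-3p, 0.27 to 1.87 for miR-221-3p and 0.02 to 1.63 for miR-221-5p.

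The second question was how the pair behaved as control myoblasts differentiated. In shNC cells no member was lower at day 3 by the 2-fold limit, and 3 of 4 had values above 0. For miR-221-3p the 37796 reads of day 0 compared with 52787 at day 3, a log2 value of 0.66 (0.65 to 0.68), within the limit. MiR-221-5p, with 2133 and 2480 reads, gave 0.40 (0.32 to 0.48), and miR-222-3p, with 25967 and 27884 reads, gave 0.29 (0.26 to 0.31). With total-count scaling these values were 0.40 for miR-221-3p, 0.13 for miR-221-5p and 0.02 for miR-222-3p, so the difference of miR-222-3p rests on the scaling. MiR-222-5p had 468 and 400 reads and a value of -0.04 (-0.24 to 0.15), which turned to 0.05 with TMM factors from every miRNA. Of 593 miRNAs tested, 29.0% were past the limit, 12.5% higher and 16.5% lower (74 and 98 miRNAs, or 51 and 140 with total-count scaling). With an assumed coefficient of variation of 0.2 the intervals of all 4 members spanned 0.

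The muscle miRNAs of the same control libraries were all past the limit at day 3, with a median log2 fold change of 2.76 against -0.04 over all miRNAs tested. MiR-206-3p, the most abundant of them, rose from 206961 to 802676 reads. In shPerk cells all 4 were past the limit upward as well, with a median of 2.64 against -0.05. Of all miRNAs tested, 12.5% in shNC and 16.9% in shPerk cells were past it upward.

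The third question was how the shPerk and shNC lines differed at day 3. All 4 members were within the 2-fold limit, which 44.9% of 575 miRNAs passed, 21.9% higher and 23.0% lower (132 of 258 were lower, or 166 of 259 with total-count scaling). For miR-221-3p, 52787 reads with shNC stood against 17946 with shPerk, which gave -0.88 (-0.90 to -0.85), which reached -1.21 with total-count scaling. MiR-221-5p had 2480 and 1409 reads and a value of -0.14 (-0.23 to -0.04). MiR-222-3p had 27884 and 16133 reads and a value of -0.11 (-0.14 to -0.08). The miR-222-5p counts were 400 and 282, with 0.18 (-0.05 to 0.40) under TMM and -0.16 under total-count scaling. MiR-221-3p thus stood apart from the other 3 members, lower than all but 24.9% of the miRNAs tested. With an assumed coefficient of variation of 0.2 its interval was -1.68 to -0.08. It then overlapped those of the other 3 members, which all spanned 0, such as -0.91 to 0.69 for miR-222-3p. Muscle miRNAs were past the limit downward in 4 of 4 cases in this comparison and in 3 of 4 at day 0, where 20.3% of all miRNAs were.

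Within shPerk cells, the pair was lower at day 3 than at day 0. The reads of miR-221-3p went from 56383 to 17946, a log2 value of -1.39 (-1.42 to -1.37), and those of miR-222-3p from 51889 to 16133, a value of -1.43 (-1.45 to -1.40). The 2 main products thus moved by like amounts, to 0.381 and 0.372 of their day 0 level. MiR-222-5p went from 694 to 282 reads, or -1.04 (-1.25 to -0.84), and miR-221-5p from 2684 to 1409 reads, or -0.67 (-0.76 to -0.58). Past the limit were 3 of 4 members, all lower, against 33.9% of the 573 miRNAs tested in either direction, 16.9% upward and 16.9% downward (97 higher and 97 lower, or 58 and 161 with total-count scaling). The 3p arms were past it under every setting tried, from -1.30 to -1.75 for miR-221-3p and from -1.34 to -1.78 for miR-222-3p. MiR-222-5p was past it in 5 of 8 settings. With a coefficient of variation of 0.2, the intervals were -2.19 to -0.59 for miR-221-3p, -2.23 to -0.63 for miR-222-3p and -1.86 to -0.22 for miR-222-5p. That of miR-221-5p ran from -1.48 to 0.13.

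**Figure D2:**
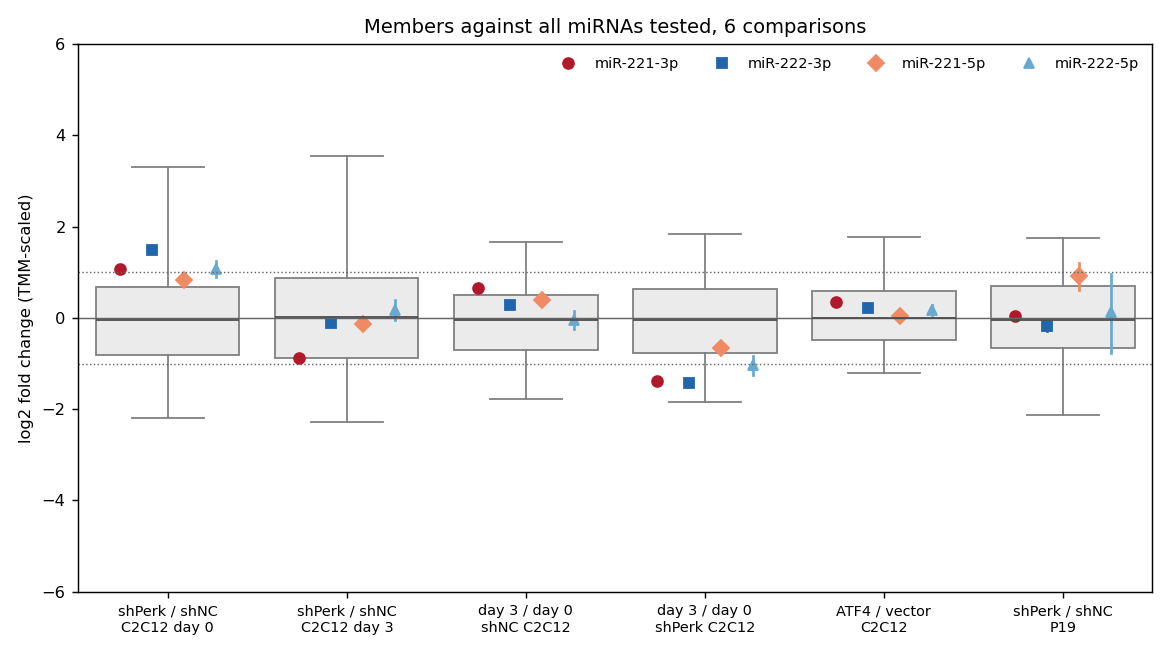
Log2 fold changes (TMM-scaled) of the 4 miRNAs in 6 comparisons as coloured symbols with 95% counting intervals (for the RPM pairs from estimated reads), over boxes for all miRNAs tested (median and quartiles, whiskers at the 5th and 95th percentiles) and dotted lines at 2-fold. The 4 symbols lie above 0 for shPerk against shNC at day 0 (0.83 to 1.496) and below 0 for day 3 against day 0 in shPerk cells (-1.43 to -0.67), and the small values of miR-222-5p in shNC cells and at day 3, those of the ATF4 pair, and those of miR-221-3p and miR-222-5p in P19 cells change sign with the scaling.

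These 4 comparisons share the same 4 libraries, so they are different views of 1 set of counts. The change of the shPerk difference from day 0 to day 3 sums them in 1 value per miRNA. It was -1.95 (-1.98 to -1.92) on the log2 scale for miR-221-3p, -1.61 (-1.64 to -1.57) for miR-222-3p, -0.96 (-1.09 to -0.84) for miR-221-5p and -0.89 (-1.17 to -0.61) for miR-222-5p. All 4 were thus below the median over the 552 miRNAs tested on both days, which was 0.05. A change beyond 1 was reached by 2 of 4 members, both 3p arms, against 28.6% of all miRNAs in either direction, 15.2% upward and 13.4% downward. MiR-221-5p was beyond 1 as well in 5 of 8 settings, by a change of -1.02 to -1.16, and miR-222-5p only with total-count scaling, at -1.09. MiR-221-3p was number 20 and miR-222-3p number 29 from the lowest. With an assumed coefficient of variation of 0.2 the interval stayed below 0 for miR-221-3p (-3.08 to -0.82) and miR-222-3p (-2.74 to -0.47), and spanned 0 for both 5p arms.

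**Figure D3:**
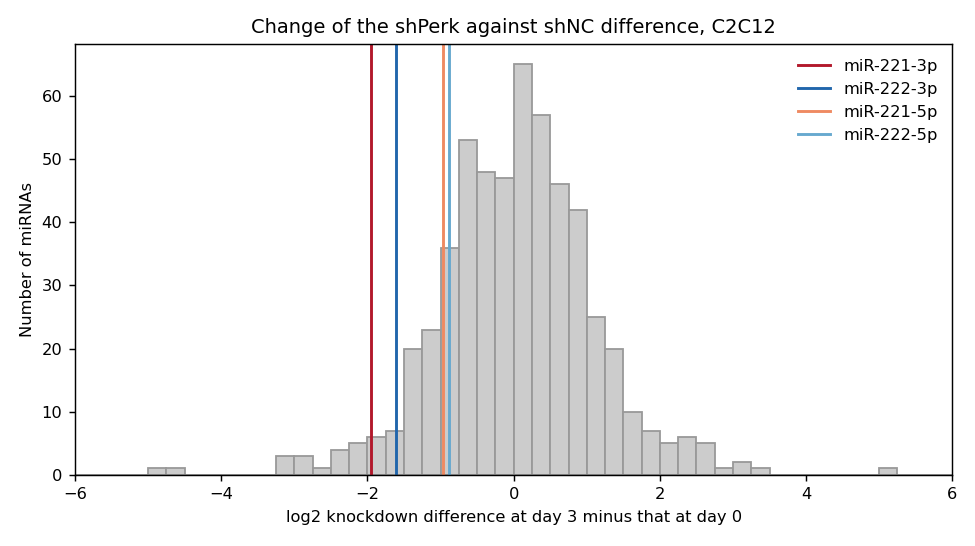
Number of miRNAs by the change of their shPerk against shNC difference from day 0 to day 3 in C2C12 cells (log2, 552 miRNAs), with coloured lines for the 4 members. The lines lie at -1.95, -1.61, -0.96 and -0.89, left of the median of 0.05.

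The ATF4 library addressed whether the transcription factor downstream of PERK altered the pair in C2C12 cells. No member was past the 2-fold limit, against 23.5% of the 605 miRNAs tested, 14.5% higher and 8.93% lower (88 and 54 miRNAs, whereas 53 of 177 were higher with upper-quartile factors). From vector to ATF4, miR-221-3p went from 8855 to 10702 RPM, a log2 value of 0.34, and miR-222-3p from 7701 to 8591 RPM, or 0.22. MiR-221-5p gave 0.04 and miR-222-5p 0.18. All 4 signs turned with upper-quartile factors, to values between -0.34 and -0.04, a scaling that also moved the median of all miRNAs from 0.00 to -0.38. The sign of miR-221-5p also turned without further scaling (-0.03) and with at least 10 RPM required in both libraries (-0.08). The counts of reads estimated from the spacing of low RPM values, 93704 and 130208 for miR-221-3p and 81492 and 104527 for miR-222-3p, gave counting intervals of 0.32 to 0.35 and 0.21 to 0.23. Muscle miRNAs summed to 2468 RPM with the vector and 3790 RPM with ATF4, with 2 of 4 past the limit upward, and miR-9-5p had 76.0 and 236 RPM.

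In P19 cells, which are not of muscle origin, the hairpin against Perk was compared with its control in the same way. No member was past the limit, against 35.3% of the 696 miRNAs tested, 17.7% higher and 17.7% lower (123 and 123 miRNAs, or 46 and 247 without further scaling). MiR-221-3p had 562 RPM in shNC and 378 RPM in shPerk cells, which was 0.03 (-0.05 to 0.11) after TMM scaling and -0.57 without it. MiR-222-3p had 346 and 201 RPM, which was -0.18 (-0.29 to -0.07) after TMM and -0.78 without it. Scaling matters in this pair, since the median of all miRNAs was -0.04 with TMM and -0.65 without it. MiR-221-5p, with 30.2 and 37.3 RPM and an estimated 239 and 166 reads, was at 0.91 (0.61 to 1.20) after TMM and 0.30 without it, so the member nearest the limit was miR-221-5p with TMM and miR-222-3p without it. MiR-222-5p rested on an estimated 42 and 17 reads, and its value of 0.13 (-0.78 to 0.97) turned to -0.48 without TMM, so a difference was not detectable at this depth. The pluripotency markers differed in the same pair of libraries, as given above. The neuronal miR-9-5p had 3359 RPM in shNC and 1429 RPM in shPerk cells, and the neuronal miR-124-3p had 198 and 29.6 RPM. With TMM, all 3 muscle miRNAs listed were past the limit upward, at a sum of 34.5 and 96.9 RPM. Of these, miR-133b-3p had only 1.14 and 1.79 RPM, so its place past the limit rests on the scaling. The part of these markers was not tested.

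The share that miR-221 takes of the 2 3p arms does not depend on how libraries are scaled. It was 59.3% (58.9 to 59.7) in shNC and 52.1% (51.8 to 52.4) in shPerk cells at day 0, and 65.4% (65.1 to 65.8) in shNC and 52.7% (52.1 to 53.2) in shPerk cells at day 3. The share was lower in the shPerk library on both days, and higher at day 3 than at day 0 in shNC cells. It was 53.5% with the vector, 55.5% with ATF4, 61.9% in P19 shNC and 65.3% in P19 shPerk cells, so that in P19 cells the shPerk library had the higher share. On the log2 scale, the ratio of miR-221-3p to miR-222-3p differed between shPerk and shNC by -0.42 (-0.45 to -0.39) at day 0 and -0.77 (-0.80 to -0.73) at day 3. From day 0 to day 3 it differed by 0.38 (0.35 to 0.41) in shNC cells and by 0.03 (-0.0014 to 0.07) in shPerk cells. In shPerk cells the ratio of the 3p arms thus differed by no more than counting error between the days. That of the 5p arms did differ, with miR-221 at 79.5% (78.1 to 80.8) of both at day 0 and 83.3% (81.5 to 85.1) at day 3.

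The arms of 1 hairpin did not keep a fixed ratio either. The 5p arm made up 5.34% (5.12 to 5.57) of miR-221 reads in shNC and 4.54% (4.38 to 4.72) in shPerk cells at day 0, and 4.49% (4.32 to 4.66) and 7.28% (6.92 to 7.65) at day 3. The shPerk day 3 library, where the 3p arm was lowest, thus had the highest 5p share of the hairpin libraries. In the other libraries the share was 7.90% with the vector, 6.51% with ATF4, 5.10% in P19 shNC and 8.98% in P19 shPerk cells. For miR-222 it was lower, between 1.32% and 1.86% in all 8 libraries. Among the 5p arms miR-221 made up 79.5% to 90.7%, a larger share than among the 3p arms in each library.

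**Figure D4:**
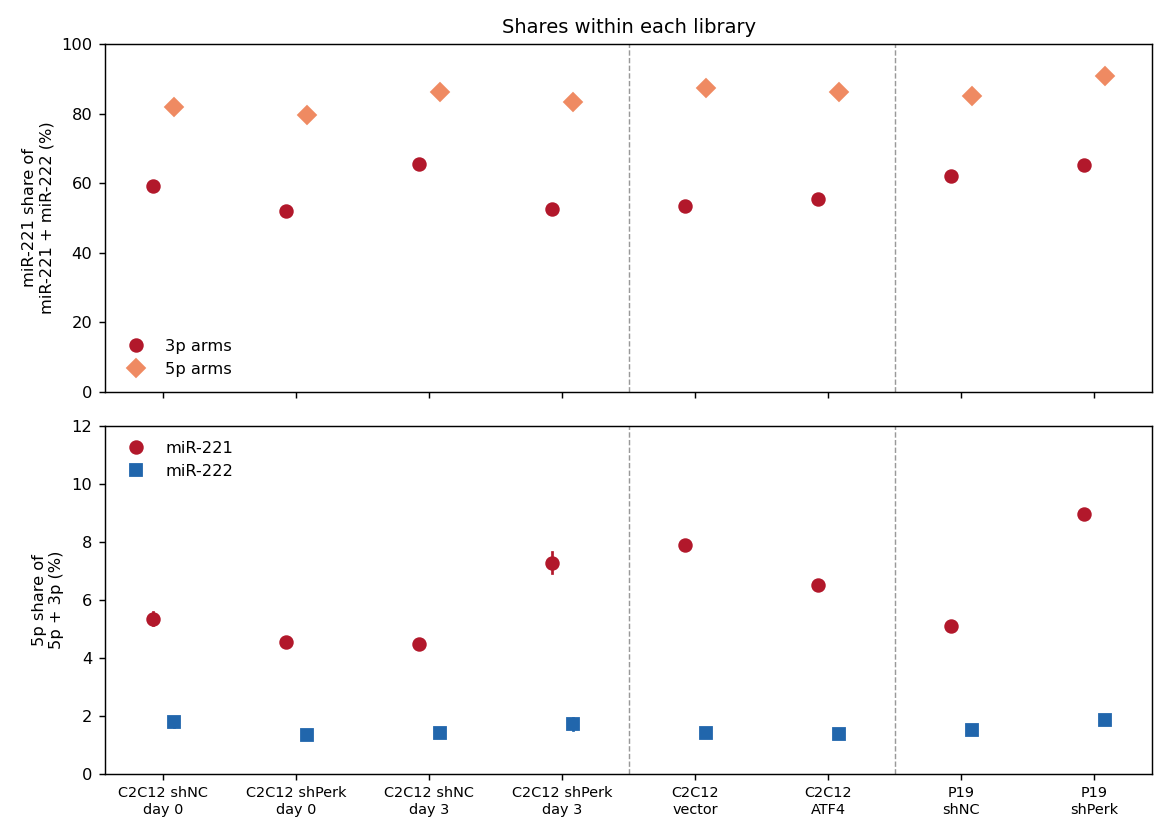
Upper panel, share of miR-221 in the reads of both 3p arms and of both 5p arms (%); lower panel, share of the 5p arm in the reads of each hairpin (%), for the 8 libraries with 95% counting intervals where counts exist. The 3p share of miR-221 lies at 52.1% and 52.7% in shPerk C2C12 cells and at 59.3% and 65.4% in shNC C2C12 cells, and the 5p share of miR-222 stays at or below 1.86%.

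The miRNA with the profile most like that of miR-221-3p was miR-222-3p, and the reverse. Likeness was measured as the root-mean-square difference of 8 log2 levels, each centred within its experiment, over 222 candidates with at least 10 CPM or RPM in all 8 libraries. The difference between the 3p arms was 0.24, against a median of 0.57 for miR-221-3p with all candidates and 0.61 for miR-222-3p. Next to miR-221-3p came miR-107-3p (0.27) and let-7d-5p (0.29), and next to miR-222-3p came miR-125a-3p (0.25) and miR-582-3p (0.29). The own 5p arm of miR-221-3p was number 5 in its order, at 0.31. The gaps between these neighbours are small and have no replicate check. MiR-107-3p, for example, had 149 CPM in shPerk cells at day 3, its lowest level as for miR-221-3p, and 278 to 306 CPM in the other hairpin libraries.

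Other miRNAs tied to the cell cycle were taken from 2 lists. The miR-15 family, listed here with 7 members, represses cyclins and is linked to cell cycle exit. In shNC cells 4 of 7 were past the limit upward at day 3 and 0 downward, with a median log2 fold change of 1.07 against -0.04 for all miRNAs, of which 12.5% were past it upward. MiR-322-5p went from 3825 to 9937 reads (1.56) and miR-503-5p from 4590 to 10138 reads (1.33), while miR-16-5p, the most abundant, gave 0.16. In shPerk cells 1 of 7 was past the limit upward, near the 16.9% of all miRNAs, with a median of -0.38 against -0.05. In the shPerk against shNC comparisons, 2 were higher and 0 lower at day 0 (median -0.14 against -0.06, with 15.6% of all miRNAs higher and 20.3% lower). At day 3, 2 were higher and 3 lower (median -0.58 against 0.01, with 21.9% higher and 23.0% lower). The ATF4 pair had 2 higher and 0 lower (median 0.60, with 14.5% of all miRNAs higher and 8.93% lower), and the P19 pair 0 past the limit (median -0.09, with 35.3% of all miRNAs past it).

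The second list holds 9 arms of the miR-17-92 and miR-106b-25 clusters, which promote proliferation. From day 0 to day 3, 1 of 9 was past the limit downward in shNC cells (median -0.41) and 5 of 9 in shPerk cells (median -1.03), with 0 upward in both. Of all miRNAs, 16.5% in shNC and 16.9% in shPerk cells were past the limit downward, with medians of -0.04 and -0.05. MiR-92a-3p, the most abundant, gave -0.89 in shNC and -1.87 in shPerk cells, and miR-20a-5p gave -0.34 and -1.47. In shPerk against shNC, 2 of 9 were lower past the limit at day 0 (median -0.92), where 20.3% of all miRNAs were, and 4 of 9 at day 3 (median -0.93), where 23.0% were. At day 0 this median had the opposite sign to the values of miR-221 and miR-222 in the same libraries. The ATF4 pair had 1 of 9 lower (median -0.19), against 8.93% of all miRNAs, and the P19 pair 0 of 9 (median -0.24), against 17.7%.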

How the data were processed

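Small RNA libraries were made by a company, which ligated linkers to both RNA ends, amplified and gel-selected the product. Reads were annotated with bowtie, and the labels name mm10 (GRCm38). The bowtie version, the miRNA release and the treatment of reads that match several miRNAs are not given in the sources used here. The deposited tables of the hairpin libraries hold raw counts of reads per mature miRNA. Those of the ATF4 and P19 pairs hold RPM values, which the authors scaled to 1000000 reads on miRNAs. The deposited fold changes, p-values and q-values were not used.

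Each comparison used its 2 libraries. MiRNAs reaching 1 CPM in either library were kept. Log2 fold changes were computed directly in R 4.3.3, with TMM factors from edgeR 4.0.16 and a prior count of 0.125. For RPM, TMM factors came from the values themselves, with zeros set to 1 RPM. A miRNA counted as past the limit when its fold was above 2. With 1 library per condition there was no test. Intervals are 95% Clopper-Pearson intervals for counting error only. They treat each read as independent, which amplified reads are not, so they may be too narrow even for counting error. For the change of the shPerk difference and for ratios of arms they use a normal approximation. Hairpin libraries had 8800977 to 11993448 reads. The deposited RPM tables give no depth, so reads were estimated from the step between low values, an alternative chosen after seeing the data. At the estimated steps, 94.8% to 100% of low values were whole to within 0.1 read.

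Alternatives were total-count, median-of-ratios (DESeq2 1.42.0) and upper-quartile scaling, TMM over every miRNA, other filters, another prior or added RPM, a fold limit of 1.5, and an assumed replicate coefficient of variation of 0.2. The code was tested on simulated data. The members, the lists of markers and of cell cycle miRNAs, and the rule for named miRNAs were chosen with earlier results of these data known. That rule names the 4 members, miRNAs with the same seed, the 3 nearest profiles to each 3p arm, and the most abundant examples of each list.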

Additional observations from a re-analysis of the deposited data

Results flagged for a closer look

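Several log2 fold changes had counting intervals on opposite sides of 0 in 2 settings of the same contrast. Each rests on 1 library per condition, and none of these differences between effects was tested. In C2C12 cells the shPerk against shNC value at day 3 minus that at day 0 was -1.95 for miR-221-3p, -1.61 for miR-222-3p and -0.96 for miR-221-5p. The day 3 values of miR-222-3p (-0.11) and miR-221-5p (-0.14) were near 0. With an assumed coefficient of variation of 0.2 their intervals spanned 0. Day 3 against day 0 in shPerk cells minus that in shNC cells gave -2.06 for miR-221-3p, -1.71 for miR-222-3p and -1.07 for miR-221-5p. These values come from the same 4 libraries and are not a separate observation. They are the same contrast of the same reads, and differ from the first values only because libraries were scaled pair by pair. The shPerk against shNC value in P19 cells minus that in C2C12 cells at day 0 was -1.68 for miR-222-3p, and the P19 value minus that in C2C12 cells at day 3 was 1.04 for miR-221-5p. The cell lines also differed in the table the values came from and in their scaling, and those cannot be told apart from the line.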

How the results depend on the processing

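No paired analysis was possible because each condition has 1 library, and for the same reason no replicate could be left out. At day 0, 3 members were past the 2-fold limit for shPerk against shNC, against 1 with total-count scaling and 1 with only miRNAs at 10 CPM or more in both libraries. At day 3 the count was 0, against 1 (miR-221-3p) with total-count scaling, 1 with the 10 CPM filter and 1 with a limit of 1.5. With a limit of 1.5 it went from 0 to 1 in shNC cells over time and from 0 to 1 in P19 cells. The other 37 alternatives kept the count within 1.5 times. The change of the shPerk difference kept its sign in every alternative tried. It was -2.15 for miR-221-3p, -1.16 for miR-221-5p and -1.80 for miR-222-3p with total-count scaling, -2.01 and -1.66 for the 3p arms with median-of-ratios factors, -2.04 and -1.70 with upper-quartile factors, with TMM over every miRNA and without a filter, and -1.90 and -1.55 with the 10 CPM filter. The number of all miRNAs past the limit went from 216 to 81 at day 0, from 258 to 114 at day 3, from 172 to 60 in shNC cells over time, from 194 to 71 in shPerk cells over time, to 60 with ATF4 (from 88 higher and 54 lower) and from 246 to 145 in P19 cells with a minimum of 10 CPM or RPM in both libraries. Without a filter it was 588, 627, 556 and 511 in the C2C12 hairpin comparisons, and with a limit of 1.5 it was 373 at day 0, 304 in shNC and 326 in shPerk cells over time, 288 with ATF4 and 389 in P19 cells. MiR-222-5p gave no value in P19 cells under the 10 RPM filter. With a coefficient of variation of 0.2, 6 of the 16 member intervals in the hairpin comparisons came to span 0 where the counting interval had not. Total-count scaling moved the median of all miRNAs to -0.19 and -0.32 for shPerk against shNC at day 0 and day 3, and to -0.30 and -0.40 over time in shNC and shPerk cells.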
